A study of Homo sapiens with 12 samples.

Results

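The endoplasmic reticulum (ER) folds proteins that enter the secretory pathway, and 10 genes of its chaperone system and of the unfolded protein response were followed across all 12 libraries of the study. They were taken by symbol from the deposited table of 58676 genes and are HSPA5, HSP90B1, HYOU1, SDF2L1, CALR, PDIA4, PDIA6, CRELD2, HERPUD1 and XBP1. Each symbol matched 1 row, and all 10 passed the filter on low values. The rule that picks them uses symbols and no measured value, although the genes were proposed with earlier results of these data known.

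RNA was sequenced from A549 cells, an established lung adenocarcinoma line, in 3 versions. These were a control line that the labels name Control1 and 2 lines with a knockout of NFE2L1, KO1 and KO2. Each was treated for 4 h with DMSO as vehicle or with 200 nM bortezomib, a proteasome inhibitor used in myeloma, and each of the 6 groups had 2 libraries. NFE2L1 encodes an ER-anchored transcription factor that is released to the nucleus and drives proteasome genes when the proteasome is inhibited. Whether a line is a single clone, and which edit it carries, is not given in the sources used here.

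When unfolded proteins build up in the ER lumen, the sensors IRE1 (gene ERN1), PERK (EIF2AK3) and ATF6 start the unfolded protein response. IRE1 splices XBP1 mRNA into the form that encodes an active transcription factor, ATF6 is cut and enters the nucleus, and PERK slows translation while favouring that of ATF4. XBP1 and ATF6 act through the ER stress response element (ERSE) in the promoters of ER chaperone genes, while cytosolic heat shock genes are driven by HSF1 through another element.

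The 10 genes were set beside their promoter letters. The ERSE is known as an element of ER chaperone genes, so finding it in genes chosen for that role is no independent result. RefSeq windows (GRCh38.p14) of 250 bases before to 50 bases after a start site were searched on both strands, for 27305 genes in all, and all 10 genes had a window. The ERSE, spelled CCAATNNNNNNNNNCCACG with N for any base, was found in 25 genes (0.0916%), and 6 of the 10 held it. The shorter ERSE-II, which is ATTGG and CCACG with 1 base between them, was found in 19 genes (0.0696%), and 3 of the other 4 held it. PDIA4 held neither in its window. A match is a description of the letters only. Capitals mark the match, each line reads along the gene's own strand, and flanks are shorter where the stretch meets an annotated exon. In CRELD2, CALR, SDF2L1, HYOU1 and the second HSP90B1 line the match was on the opposite strand, so the capitals show its reverse complement. The first base of the capitals lay 52 bases (XBP1) to 225 bases (CALR) before the start site.
HSPA5 (chr9:125241376-125241424, minus strand): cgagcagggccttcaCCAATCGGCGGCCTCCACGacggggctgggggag
HSP90B1 (chr12:103930211-103930239, plus strand): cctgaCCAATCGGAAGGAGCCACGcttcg
HSP90B1 (chr12:103930316-103930344, plus strand): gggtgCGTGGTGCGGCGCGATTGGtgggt
CALR (chr19:12938369-12938417, plus strand): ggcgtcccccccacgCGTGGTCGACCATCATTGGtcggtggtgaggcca
PDIA6 (chr2:10812848-10812876, minus strand): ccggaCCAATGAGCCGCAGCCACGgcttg
CRELD2 (chr22:49918539-49918587, plus strand): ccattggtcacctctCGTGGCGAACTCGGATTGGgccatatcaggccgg
XBP1 (chr22:28800598-28800626, minus strand): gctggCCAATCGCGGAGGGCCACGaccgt
HERPUD1 (chr16:56932020-56932040, plus strand): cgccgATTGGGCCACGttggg
SDF2L1 (chr22:21642099-21642139, plus strand): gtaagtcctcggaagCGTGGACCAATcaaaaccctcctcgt
HYOU1 (chr11:119057365-119057405, minus strand): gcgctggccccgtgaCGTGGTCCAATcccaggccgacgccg
HYOU1 (chr11:119057259-119057299, minus strand): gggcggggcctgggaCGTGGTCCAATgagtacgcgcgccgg

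Elements of other factors were searched in the same windows. HYOU1 held the XBP1-type element TGACGTGG, which 0.927% of genes held and which overlapped its first ERSE-II. HERPUD1 held the C/EBP-ATF element TGATGNAA, the kind that ATF4 and CHOP bind, which was found in 4.46% of genes. Its stretch is shown because HERPUD1, which also held an ERSE-II, was the only 1 of the 10 with this element. The capitals are the reverse complement.
HERPUD1 (chr16:56931951-56931988, plus strand): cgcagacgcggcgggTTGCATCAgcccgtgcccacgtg
The antioxidant-type element TGACNNNGC, which NFE2-family factors can bind, was in the windows of SDF2L1, CRELD2 and CALR and in 16.1% of all genes. The heat shock element, which is GAA, TTC and GAA with 2 bases between each, was in 0.608% of genes and in 0 of the 10.

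The libraries held 13211608 to 23819258 reads assigned to genes. The 6 libraries whose titles end in R2 stood apart from the other 6. Mitochondrially encoded genes took 12.3% to 19.3% of their reads, against 5.44% to 6.80% elsewhere. Every one of the 10 genes was higher in the R2 library than in its partner in all 6 groups, by 1.29 to 2.75 times, while the median ratio of all tested genes was 0.869 on FPKM + 1. The part of this difference in any result was not tested. The bortezomib changes of the 10 genes are therefore given within pairs of libraries of the same line and suffix as well as over groups. Most genes of the other lists are given by their limma changes only. Keratins KRT8 (lowest FPKM 125.9), KRT18 and KRT7 were high throughout, EPCAM lay between 1.25 and 10.6 FPKM, and of the 9 fibroblast, leukocyte and endothelial markers the highest value was 1.40 FPKM, for LUM. With vehicle NFE2L1 itself had an FPKM of 72.7 and 151 in control libraries, 8.45 and 14.8 in those of KO1, and 18.6 and 33.6 in those of KO2, so residual reads were present in both knockout lines. NFE2L1 fell in KO1 (-3.27 ± 0.19, log2, SE) and in KO2 (-2.18 ± 0.19) in the limma fit with the replicate block described below, and the adjusted p was 6.2e-05 and 0.000448. A fit lacking that block gave -3.11 and -2.02, short of the threshold (limma adjusted p = 0.0666 and 0.371).

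In vehicle the 10 genes spanned a wide range of levels. FPKM divides reads by the gene length deposited with the values, from 1099 bases for SDF2L1 to 7694 bases for HYOU1. Levels of different genes depend on that length as well as on reads, so they compare only roughly. CALR (360 ± 122 FPKM, SD, n = 6 libraries), HSP90B1 (353 ± 113) and HSPA5 (353 ± 109) ranked 44, 45 and 47 among all genes. CALR was above HSP90B1 in 3 of the 6 vehicle libraries and HSP90B1 above HSPA5 in 4 of 6, so these neighbours did not separate. PDIA4 followed at 225 ± 77.5 FPKM and PDIA6 at 116 ± 47.4, each below the gene before it in 6 of 6 libraries. SDF2L1 (28.6 ± 11.8), HYOU1 (25.3 ± 8.54) and XBP1 (21.7 ± 9.31) formed a lower tier whose neighbours changed order between libraries. HERPUD1 (13.9 ± 4.55) and CRELD2 (8.59 ± 3.29) were lowest and kept that order in 6 of 6 libraries. With bortezomib HSPA5 stood alone at the top with 867 ± 210 FPKM, at rank 26 of all genes. XBP1 moved from rank 1878 to 585 and HERPUD1 from 3054 to 932.

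Bortezomib split the 10 genes. HSPA5, HERPUD1 and XBP1 were higher in every pair of libraries, with median ratios of 2.61, 2.60 and 2.46, and rose in the comparison over the 3 lines. HYOU1 and HSP90B1 were higher in every pair by smaller ratios, SDF2L1 and PDIA6 moved both ways, and CALR, CRELD2 and PDIA4 were lower in most or all pairs. How many of all tested genes moved the same way in every pair, or had treatments that did not overlap, was not counted. Neither feature is therefore read as particular to the genes described here. The log2 changes averaged over the lines ran from 1.37 for HERPUD1 to -0.49 for PDIA4, with a median of 0.10 against -0.01 over all tested genes. Because these are bulk libraries, a change in the share of cells and a change in RNA per cell cannot be told apart. The labels do not say whether the 2 libraries of a group came from separate cultures, so p-values measure only the spread between these libraries, which may be technical.

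The test was limma on log2(FPKM + 1) over 12194 genes, with p-values adjusted over all of them by the Benjamini-Hochberg method and a call at under 0.05. It was run without and with a replicate block, a term for the title suffix that removes the difference between R2 and the other libraries. Without the block 3 of the 10 genes were called, all higher, where 11.6% of all tested genes were called. With the block 6 were called, 4 higher and 2 lower, where 54.9% were called in either direction, 27.0% higher and 27.9% lower. A count of 6 in 10 is close to that background, and no more is read from it. Each line and suffix holds both treatments, so the block leaves the bortezomib log2 changes as they are and alters only their errors.

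**Figure D1:**
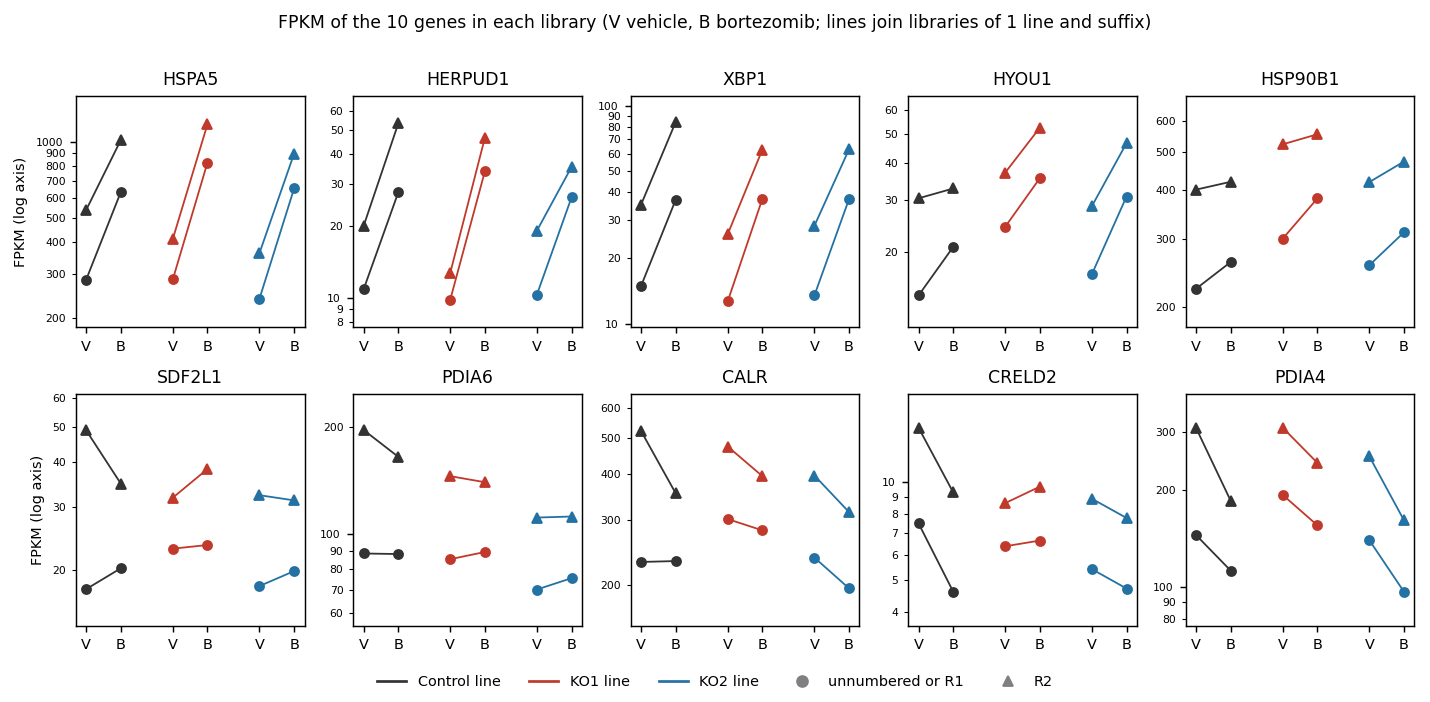
FPKM (log axis) of each of the 10 genes in the 12 libraries, with V for vehicle and B for bortezomib, circles for the unnumbered or R1 library, triangles for R2, and lines joining libraries of 1 line and suffix. Lines for HSPA5, HERPUD1 and XBP1 climb in all 6 pairs, those for PDIA4 descend in all 6, and every triangle lies above the circle of its group.

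HSPA5 encodes BiP, the ER member of the HSP70 family, which binds unfolded chains and holds the stress sensors inactive (chr9:125234853-125241330, minus strand). In the control line its FPKM was 284 and 536 with vehicle and 632 and 1017 with bortezomib. In KO1 it was 284 and 412 with vehicle and 826 and 1174 with bortezomib, and in KO2 238 and 362 with vehicle and 653 and 898 with bortezomib. No bortezomib library was below any vehicle library. HSPA5 rose by 1.31 ± 0.32 (log2, SE, mean of the lines; limma adjusted p = 0.0281), and with the block by the same 1.31 ± 0.08 (adjusted p = 4.38e-06).

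HYOU1 encodes GRP170, a large HSP70-like protein that exchanges nucleotide on BiP (chr11:119044189-119057202, minus strand). Its FPKM in the control line was 14.4 and 30.4 with vehicle and 20.9 and 32.7 with bortezomib. In KO1 the values were 24.4 and 37.0 against 35.5 and 52.4, and in KO2 16.9 and 28.6 against 30.8 and 46.5. All 6 pairs were higher with bortezomib, by 1.08 to 1.82 times, while the treatment groups overlapped, with R2 vehicle libraries above bortezomib libraries of the other suffix. The mean change of 0.52 was called with the block (SE 0.08, limma adjusted p = 0.000796) and not without it (adjusted p = 0.283).

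HSP90B1 encodes GRP94, the HSP90 of the ER lumen (chr12:103930107-103953645, plus strand). Its FPKM was 223 and 400 with vehicle and 261 and 419 with bortezomib in the control line, 300 and 522 against 380 and 554 in KO1, and 256 and 418 against 311 and 472 in KO2. The ratio exceeded 1 in 6 of 6 pairs but never 1.27. The mean log2 change of 0.20 passed neither limma fit (adjusted p = 0.765 without and 0.0734 with the block).

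SDF2L1 encodes a lumenal partner of BiP and DNAJB11 (chr22:21642261-21644298, plus strand). Its highest value of all 12 libraries was 48.8 FPKM, in the R2 control library with vehicle, whose bortezomib partner had 34.7. The unnumbered control pair went the other way, from 17.7 to 20.2. In KO1 the values were 22.9 and 31.8 with vehicle and 23.5 and 38.1 with bortezomib, and in KO2 18.1 and 32.3 against 19.9 and 31.2. With 4 pairs higher and 2 lower, the mean log2 change was 0.01 ± 0.10 with the block (limma adjusted p = 0.924).

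CALR encodes calreticulin, the lumenal lectin that retains glycoproteins until they are folded (chr19:12938578-12944489, plus strand). Its FPKM was 231 and 520 with vehicle and 232 and 354 with bortezomib in the control line, 302 and 473 against 281 and 394 in KO1, and 238 and 395 against 196 and 315 in KO2. Of 6 pairs 5 were lower with bortezomib, the exception being the unnumbered control pair at a ratio of 1.01. The mean log2 change of -0.25 missed the threshold in limma with the block (adjusted p = 0.0527). It also missed it without a block (0.699) and with the unnumbered libraries placed on the R1 level (0.0626). It passed with the block after quantile normalization (0.0321) and in voom on recovered reads (0.0306). When 1 pair was left out, the log2 change with the block was between -0.35 and -0.16, the lowest without the unnumbered control pair.

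PDIA4 and PDIA6 encode protein disulfide isomerases, which make and reshuffle disulfide bonds. PDIA4 (chr7:149003062-149028641, minus strand) had an FPKM of 145 and 310 with vehicle and 112 and 185 with bortezomib in the control line, 193 and 310 against 155 and 242 in KO1, and 140 and 253 against 96.8 and 161 in KO2. It was lower with bortezomib in 6 of 6 pairs, at 0.596 to 0.806 of the vehicle value. The mean log2 change was -0.49, called with the block (SE 0.09, limma adjusted p = 0.00134) but not without it (adjusted p = 0.408). PDIA6 (chr2:10783391-10837977, minus strand) showed 3 pairs higher and 3 lower, with ratios of 0.841 to 1.08. Its FPKM lay between 70.1 and 197 with vehicle and between 75.4 and 165 with bortezomib.

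CRELD2 encodes a small ER-resident protein of the unfolded protein response that works with disulfide isomerases (chr22:49918167-49927540, plus strand). Its FPKM in the control line was 7.48 and 14.7 with vehicle and 4.61 and 9.31 with bortezomib. In KO1 it was 6.36 and 8.64 against 6.62 and 9.70, and in KO2 5.41 and 8.91 against 4.72 and 7.77. Both control pairs and both KO2 pairs were lower with bortezomib, and both KO1 pairs were higher. The mean log2 change of -0.22 was called in limma with the block by title suffix (adjusted p = 0.0285). It was not called without a block (0.646), with the unnumbered libraries placed on the R1 level (0.0521), or after any 1 of the 6 pairs was left out (0.0534 to 0.116).

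HERPUD1 encodes an ER membrane protein that assembles the machinery for ER-associated degradation (ERAD), which hands misfolded proteins to the proteasome (chr16:56932048-56944863, plus strand). Its FPKM was 10.9 and 20.02 with vehicle and 27.6 and 53.4 with bortezomib in the control line, 9.90 and 12.8 against 33.8 and 46.7 in KO1, and 10.4 and 19.1 against 26.3 and 35.2 in KO2. The lowest bortezomib library, at 26.3, was above the highest vehicle library, at 20.02. HERPUD1 rose by 1.37 ± 0.27 (log2, SE; limma adjusted p = 0.0128), and the call was kept when any 1 of the 12 libraries was left out (adjusted p = 0.0178 to 0.0429).

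XBP1 encodes the transcription factor that IRE1 activates by splicing (chr22:28794555-28800597, minus strand). Its FPKM was 14.9 and 35.2 with vehicle and 37.0 and 84.2 with bortezomib in the control line, 12.7 and 25.7 against 37.4 and 62.9 in KO1, and 13.5 and 28.1 against 37.3 and 63.0 in KO2. All bortezomib libraries were above all vehicle libraries, the closest being 37.0 against 35.2. XBP1 rose by 1.30 ± 0.36 (log2, SE; limma adjusted p = 0.0476) and with the block by 1.30 ± 0.08 (adjusted p = 4.43e-06).

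Without the block the calls of HSPA5 and XBP1 rested on the setting. Neither was called without a filter on low values (limma adjusted p = 0.115 and 0.1) or after quantile normalization (0.0638 and 0.0606), and XBP1 also not with mitochondrially encoded genes left out (0.0664). When 1 library was left out, both kept the call only without the R2 vehicle library of the control line (0.0338 and 0.0488) or of KO1 (0.0421 and 0.0480). Elsewhere the values reached 0.0819 and 0.119. With the block, HSPA5, XBP1 and HERPUD1 kept the call without any 1 pair, as did HYOU1 and PDIA4.

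Gene-level FPKM does not separate the forms of XBP1 mRNA. The GENCODE 29 transcripts XBP1-201 and XBP1-207 differ by the 26 bases that IRE1 removes, and the sequence is shown because the deposited value counts reads from both forms together. The stretch lies at positions 566 to 591 of XBP1-201, in capitals, and can be placed in 7 equivalent ways because its ends repeat.
XBP1-201: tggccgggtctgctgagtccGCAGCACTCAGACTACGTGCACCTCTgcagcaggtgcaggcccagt

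Reads may be shared with overlapping genes, since the counting rules and strand setting are not given in the sources used here. In GENCODE 29, HSPA5, XBP1, SDF2L1 and PDIA4 overlap no other annotated gene. The other 6 do, among them CRELD2 with ALG12 on the opposite strand and PDIA6 with ATP6V1C2 on the opposite strand, so their values are less certain in this respect.

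**Figure D2:**
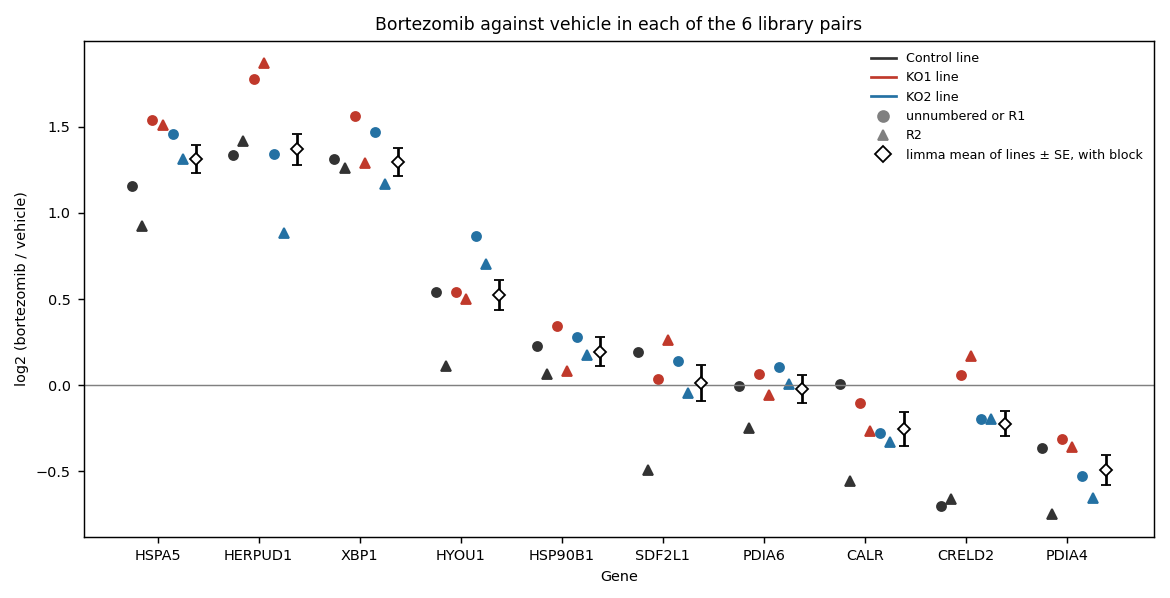
Log2 ratio of FPKM with bortezomib to vehicle in each of the 6 pairs of libraries for the 10 genes, with diamonds and bars for the limma mean of the lines ± SE on log2(FPKM + 1), with the replicate block. HSPA5, HERPUD1 and XBP1 lie above 0.88 in all pairs, while PDIA4 lies below 0 in all pairs.

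Ratios between genes in the same library are free of the library's own scaling. They were chosen after the values were seen and are given with no test. HSPA5 stood at 0.871 to 1.23 times CALR in the 6 vehicle libraries and at 2.72 to 3.33 times CALR in the 6 bortezomib libraries. Relative to HSP90B1, HSPA5 moved from 0.788 to 1.34 with vehicle to 1.90 to 2.43 with bortezomib, and relative to PDIA4 from 1.33 to 1.96 to 4.85 to 6.75. The treatments did not overlap in any of these ratios, in R2 and in other libraries alike. HSPA5 alone made up 20.8% to 27.4% of the summed FPKM of the 10 genes with vehicle and 41.9% to 45.0% with bortezomib, while CALR went from 22.3% to 24.6% to 13.5% to 16.2%. Among the less abundant genes, XBP1 was at 0.553 to 0.871 times SDF2L1 with vehicle and 1.59 to 2.42 times with bortezomib. HERPUD1 was at 1.36 to 2.15 and 4.53 to 5.99 times CRELD2.

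**Figure D3:**
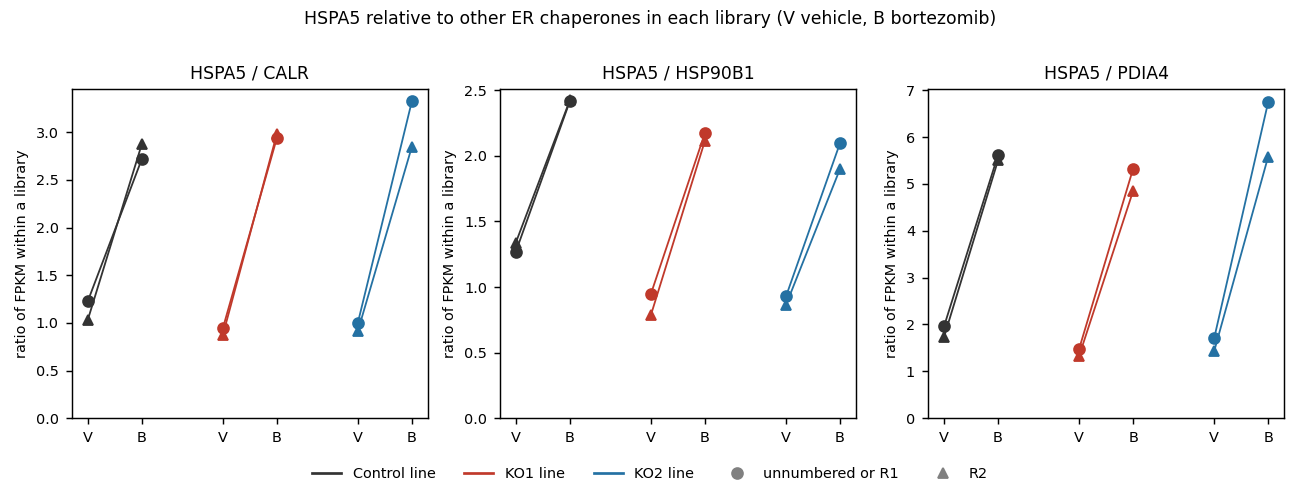
FPKM of HSPA5 divided by that of CALR, HSP90B1 or PDIA4 in the same library (linear axes from 0), with V for vehicle and B for bortezomib and lines joining libraries of 1 line and suffix. The circle and triangle of a group lie less far apart than the treatments of that line, as for PDIA4 in KO2 with bortezomib (6.75 and 5.58). All bortezomib libraries lie above all vehicle libraries in the 3 panels.

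The response was also read in each line, where every line compared 2 libraries with 2. Without the block limma called 0 of the 10 genes in any line, where 0.467% (control), 0.238% (KO1) and 0.320% (KO2) of all tested genes were called. At an unadjusted p under 0.05 the counts were 1, 2 and 1 of the 10, among 1498, 1153 and 1169 of the 12194 tested genes. Voom without the block also called 0 of the 10. With the block 5 of 10 were called in the control line, where 32.4% of all genes were. These were HSPA5 (1.04 ± 0.14, log2, SE), HERPUD1 (1.32 ± 0.15) and XBP1 (1.25 ± 0.14), which rose, and CRELD2 (-0.60 ± 0.13) and PDIA4 (-0.55 ± 0.15), which fell, with limma adjusted p-values of 0.000420 to 0.0226. In KO1 4 were called, where 27.7% of all genes were. HSPA5 rose by 1.52, HERPUD1 by 1.73, XBP1 by 1.37 and HYOU1 by 0.51. In KO2 5 were called, where 27.0% of all genes were. HSPA5 rose by 1.38, HERPUD1 by 1.06, XBP1 by 1.27 and HYOU1 by 0.76, and PDIA4 fell by 0.59. Without the R1 pair of KO2 the change of HERPUD1 there was 0.85 and was no longer called (adjusted p = 0.0882), and 2 of the 10 were called in that line. Without the R2 pair 3 were called there. Without the R2 pair of the control line 3 of the 10 were called in that line.

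Whether the response differed between knockout and control lines was tested as an interaction, the mean bortezomib effect in the KO lines minus that in the control line. No gene of the 12194 was called by limma in either fit, and an unadjusted p under 0.05 was found for 115 genes, 0 of the 10 among them, without the block and for 1305 genes, including 2 of the 10, with it. The background was 0% called in both fits. The 2 genes were CRELD2, with a difference of 0.57 ± 0.16 (log2, SE; adjusted p = 0.223), and HSPA5, with 0.41 ± 0.17 (adjusted p = 0.442). The difference was above 0 for all 10 genes, from 0.03 for CALR to 0.57 for CRELD2, with a median of 0.13 against 0.01 over all tested genes. Several were smaller than their SE with the block, such as CALR (0.03 ± 0.21), HSP90B1 (0.07 ± 0.18) and XBP1 (0.07 ± 0.17). These are averages of KO1 and KO2. Taken singly, KO1 had all 10 above 0 and KO2 had 7, with HERPUD1 (-0.26), PDIA4 (-0.04) and CALR (-0.03) below. These values share the same libraries, those of the control line among them, so they are not independent. The share of all tested genes above 0 was not counted, and no more is read from these numbers. In voom on recovered reads with the block 123 genes were called, and 0 of the 10.

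In vehicle the knockout lines were compared with the control line, the 2 comparisons sharing their control libraries. CRELD2 and PDIA6 were lower than in the control library of the same suffix position in 4 of 4 comparisons, as were XBP1 and HERPUD1, while HSP90B1 was higher in 4 of 4. The R1 knockout libraries were set beside the unnumbered control libraries for this. The share of all tested genes that reached 4 of 4 was not counted, so nothing particular to these genes is read from these counts. CRELD2 stood at 0.587 to 0.851 of the control value, PDIA6 at 0.568 to 0.964, XBP1 at 0.732 to 0.904 and HERPUD1 at 0.639 to 0.956. HSP90B1 stood at 1.05 to 1.34 times the control value. With bortezomib CRELD2 was above control in 3 of 4 comparisons, while HYOU1 was above it in 4 of 4, by 1.42 to 1.70 times.

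Limma without the block called 0 of the 10 genes in either knockout line with vehicle, in which 0.213% of all tested genes were called in KO1 and 0.230% in KO2. At an unadjusted p under 0.05 the count was also 0 of the 10 in both lines, among 538 genes of the 12194 in KO1 and 433 in KO2. After adjustment, voom without the block called 0 of the 10 as well. With the block by title suffix, 5 of the 10 had an unadjusted p under 0.05 in each line, among 2646 genes of the 12194 in KO1 and 2328 in KO2. With the block by title suffix, CRELD2 fell in KO1 (-0.63 ± 0.15, log2, SE; adjusted p = 0.0422), the only call there, where 5.95% of all genes were called. In KO2 CRELD2 (-0.71 ± 0.15, adjusted p = 0.0299) and PDIA6 (-0.75 ± 0.17, adjusted p = 0.0358) fell, where 4.91% were called. That block ties knockout and control mainly through the R2 libraries, as R1 occurs only in knockout groups. With the unnumbered libraries on the R1 level none of the 10 was called in either line (CRELD2 0.102 and 0.0813, PDIA6 in KO2 0.0880). Leaving out any 1 pair also removed these calls (CRELD2 0.0712 to 0.331 in KO1 and 0.0544 to 0.305 in KO2), except that PDIA6 kept its call in KO2 without the unnumbered control pair (0.0396) and otherwise had 0.0957 to 0.658.

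The neighbouring genes of ER proteostasis were read from lists drawn up by function, in the comparison of bortezomib with vehicle over the 3 lines. Counts with the block stand against the 27.0% higher and 27.9% lower of all genes, and counts without it against 4.85% and 6.76%. Counts at an unadjusted p under 0.05 without the block stand against 3275 of the 12194 tested genes. Among 8 sensors and activators 3 rose and 3 fell with the block, and without it ERN1 alone was called. ERN1, the IRE1 sensor upstream of XBP1, rose by 1.40 ± 0.29 (log2, SE; limma adjusted p = 0.0157 without the block). Its FPKM was 1.71 and 3.23 with vehicle and 5.94 and 11 with bortezomib in the control line, and its pair ratios were 2.76 to 3.73. EIF2AK3, the PERK sensor, changed by 0.17 and passed neither fit. ATF6 changed by 0.22 and passed with the block only (limma adjusted p = 0.0391). CREB3L2, an ER-anchored transcription factor, had the largest fall of the list (-0.67, adjusted p = 0.00168 with the block and 0.0621 without).

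Of 16 other ER chaperones and cofactors 5 rose and 6 fell with the block, with a median of -0.19. Without the block limma called 0, and 3 had an unadjusted p under 0.05. The J-protein co-chaperones of BiP went both ways. DNAJB9 (0.89), DNAJC3 (0.82) and DNAJB11 (0.54) rose, DNAJC10 fell (-0.36, limma adjusted p = 0.0089, lower in 6 of 6 pairs) and SEC63 was not called (0.10). The HSP70-like HSPA13 rose (0.80), while the prolyl isomerases FKBP2 (-0.56) and PPIB (-0.51) fell. DNAJB9 was higher in 6 of 6 pairs, by 1.58 to 2.33 times. Of 12 genes of oxidative folding 1 rose and 4 fell with the block. Limma called 0 without it, and 0 had an unadjusted p under 0.05. ERO1A, the oxidase that recharges disulfide isomerases, fell by 0.63 and its relative ERO1B rose by 0.41 with the block (adjusted p = 0.000298 and 0.00227).

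Of 22 ERAD genes 10 rose and 6 fell with the block, and 3 rose and 1 fell without it. The 3 were NPLOC4 (1.15, limma adjusted p = 0.00742) and UFD1 (0.78, 0.0171), the cofactors that bring ubiquitinated proteins to the VCP segregase, and SELENOK (0.84, 0.0320). EDEM3, a mannosidase-like protein that marks glycoproteins for disposal, fell by 1.08 (0.0346). VCP itself changed by 0.36 and was called with the block only (adjusted p = 0.00564). NPLOC4 had an FPKM of 32.0 and 24.3 with vehicle and 92.6 and 87.3 with bortezomib in the control line. In KO1 it was 30.2 and 22.6 against 53.3 and 46.8, and in KO2 29.5 and 27.7 against 54.6 and 53.6. The interaction with the block was -0.75 for NPLOC4 (limma adjusted p = 0.196) and -0.70 for UFD1 (0.230), so neither was called. RNF5 had the largest difference the other way among the 22 (0.90, adjusted p = 0.218). SELENOK and UFD1 are listed under older symbols in the deposited table. Of 15 genes of translocation and ER export 1 rose, SEC24D (0.88), and 6 fell with the block, among them the signal peptidase subunits SPCS3 (-0.95), SPCS1 (-0.58) and SPCS2 (-0.42) and the translocon-associated SSR1 (-0.52). Without the block limma called 0 of the 15, and 2 had an unadjusted p under 0.05.

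The lists of the ATF4 branch and the cytosolic chaperones had higher medians than the 10 genes (0.10), and that difference was not tested. Single genes overlapped on the log2(FPKM + 1) scale, with ATF4 (0.74), ASNS (0.87), HSPA8 (0.73), HSP90AB1 (1.02) and HSPA4 (1.27) below HSPA5, XBP1 and HERPUD1. That scale understates changes of low genes such as ASNS. By median pair ratio ASNS (3.385) was above HSPA5 (2.61), HERPUD1 (2.60) and XBP1 (2.46), and HSPA4 (2.51) was above XBP1. All 8 listed genes of the ATF4 branch rose with the block and 7 of 8 without it, with a median of 2.65. SESN2 (3.53), ATF3 (3.52), PPP1R15A (2.90), DDIT3 (2.73), TRIB3 (2.57) and CHAC1 (2.39) stood highest. DDIT3, which encodes CHOP, had an FPKM of 1.89 and 1.99 with vehicle and 18.0 and 7.72 with bortezomib in the control line. In KO1 it was 2.73 and 3.02 against 38.2 and 22.4, and in KO2 2.05 and 1.56 against 23.9 and 22.2. The interaction with the block was 0.90 for DDIT3 (limma adjusted p = 0.364) and 1.42 for ATF3 (0.0669), so neither was called. The lowest of this list was ASNS at -0.34. ATF4 mRNA changed by 0.74 and was called with the block only (limma adjusted p = 0.000192). All 8 cytosolic chaperones rose with the block and 5 without it, with a median of 2.23. HSPA1A (4.54) and HSPA1B (4.59) are near-identical copies whose reads the counting may split, so each is uncertain. HSPH1 rose by 2.54, DNAJB1 by 2.80 and HSP90AA1 by 1.91 in both fits. HSPA8, the constitutive cytosolic HSP70, changed by 0.73 and was called with the block only (adjusted p = 0.000643).

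Members of the HSP70 and HSP90 families were set side by side by compartment, with log2 changes over the 3 lines and no test between compartments. Among HSP70 relatives of the ER, HSPA5 changed by 1.31, HSPA13 by 0.80 and HYOU1 by 0.52. In the cytosol HSPA1A and HSPA1B changed by 4.54 and 4.59, HSPH1 by 2.54, HSPA4 by 1.27 and HSPA8 by 0.73, and in mitochondria HSPA9 by 0.81. HSPA5 thus lay within the range of the cytosolic genes. Of these, HSPA5, HSPA1A, HSPA1B and HSPH1 were called by limma in both fits and the others with the block only. Among HSP90 genes, HSP90B1 of the ER (0.20) and TRAP1 of mitochondria (-0.04) passed neither fit. The cytosolic HSP90AA1 rose by 1.91, and HSP90AB1 changed by 1.02 (limma adjusted p = 0.102 without the block and 4.07e-05 with it). The mitochondrial chaperonins HSPD1 (1.39, adjusted p = 0.0476) and HSPE1 (1.19, 0.0109), which belong to neither family, rose without the block. HSP90AA1 was lower in each R2 library than in its partner (337 against 427 FPKM in the control line with vehicle), unlike the 10 ER genes, all of which were higher in R2. This contrast did not follow compartment. Of the ER lists, SEC61G (16.1 against 39.6 FPKM in the same 2 libraries) and UBE2J1 (3.29 against 9.97) were also lower in each R2 library.

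The genes whose pattern over the 12 libraries was most like that of HSPA5, after the mean difference of the R2 libraries was taken out, were IL12A (Pearson's r 0.991), MICB (0.982) and SMOX (0.981). For XBP1 they were SLC7A1 (0.990), EDA2R (0.986) and GADD45A (0.985). For HERPUD1 they were XBP1 itself (0.979), MAP3K10 (0.978) and FBXO38 (0.977). These are descriptions over 12 libraries that share the vehicle and bortezomib contrast, and no test was made on them.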

How the data were processed

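Total RNA from 12 A549 libraries was sequenced after random-hexamer priming, per the labels' protocols. The authors deposited 1 table of FPKM (reads corrected for gene length and depth), with 58676 genes in rows. The submitters' processing notes name CASAVA, STAR 2.5, HTSeq 0.6.1, DESeq2 and hg19 with no role or order, whereas 95.3% of gene positions in the table equal those of GENCODE 29 on GRCh38, as do those of all 10 genes described here. Coordinates of genes are the table's, those of promoter stretches are RefSeq's on GRCh38.p14. FPKM times length came out as a whole number of reads (tolerance 0.05 of a read) in 100% of cases, from which the depth was 13211608 to 23819258 reads. All columns were mapped to a sample.

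Groups came from the labels. The test was limma 3.58.1 in R 4.3.3 (trended eBayes) on log2(FPKM + 1), with 1 mean per group over all 12 libraries and no block. Genes had to average an FPKM of 1 or more, which left 12194, and all adjusted p-values are Benjamini-Hochberg over these. Folds on this scale understate changes of low genes. Since FPKM is no count, voom in limma on the recovered reads was the alternative for counts. Title suffixes pair libraries: deviations from group means correlated between same-suffix libraries with r of 0.696 to 0.890 (median 0.811) over all 15 pairs of groups, with the unnumbered control libraries set beside R1. The block by suffix is therefore given beside each result whose call it changes. On simulated data over 12194 genes, 200 of them were changed 2-fold by bortezomib. The test over the 3 lines recovered 0 without the block and 193 (96.5%) with it (7 false calls). In the control line it recovered 0 and 121 (60.5%). These data were built with an R2 difference shared by all groups, the residual spread of a block fit and no line effects. The gain with the block follows from that construction and does not show which fit suits the real data. There the fit without the block called 1415 genes over the 3 lines.

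Named genes were the 10 members, NFE2L1, the largest rise and fall of each list, genes of the sensor, ATF4-branch, cytosolic and mitochondrial lists, and the 3 genes most like HSPA5, XBP1 and HERPUD1. Other genes named were chosen after their values were seen. The 10 genes and the lists were chosen with earlier results of these data known. Python 3.11.15, numpy 2.4.6, pandas 2.3.3 and matplotlib 3.10.9 were used.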

Additional observations from a re-analysis of the deposited data

Results flagged for a closer look

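In CRELD2 the pair ratios of KO1 lay on the other side of 1 from those of the control line and KO2. In limma with the replicate block only the control line's change was called (-0.60 ± 0.13, log2, SE; adjusted p = 0.00762). The changes in KO1 (0.10 ± 0.13, adjusted p = 0.589) and KO2 (-0.17 ± 0.13, adjusted p = 0.353) were not called. The mean log2 ratio of bortezomib to vehicle over the 2 pairs of a line was 0.113 in KO1, with both pairs higher, and -0.679 in the control line and -0.197 in KO2, with both pairs lower in each. The difference between KO1 and the control line was 0.70 ± 0.18 (log2, SE) in limma with the replicate block (adjusted p = 0.229) and did not pass without it either. In PDIA6 both pairs were higher in KO2, with a mean log2 ratio of 0.0577, and both lower in the control line, with -0.128. That difference was 0.18 ± 0.20 with the block (limma adjusted p = 0.953). The difference of KO1 from KO2 in CRELD2 was not tested.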

How the results depend on the processing

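Counts of genes called moved with the setting. In the order bortezomib in the control line, KO1 and KO2 and over the 3 lines, then KO1 and KO2 in vehicle, limma called 57, 29, 39, 1415, 26 and 28 genes, and 3952, 3378, 3297, 6690, 725 and 599 with the replicate block by title suffix. With the block and the unnumbered libraries on the R1 level it called 3968, 3403, 3291, 6689, 971 and 596. The block with voom gave 4574, 4022, 4033, 7090, 1196 and 1058 (123 in the interaction), with quantile normalization 4146, 3671, 3584, 6937, 847 and 592, and without mitochondrially encoded genes 4036, 3448, 3304, 6712, 824 and 600. Without a block, leaving out the filter on low values gave 124, 64 and 96 in the 3 lines, 55 and 52 in vehicle and 7 in the interaction. Quantile normalization gave 142, 57 and 112 in the lines and 16 in KO2 with vehicle, leaving out mitochondrially encoded genes 114, 49 and 83 in the lines, and a pseudocount of 0.1 gave 9 in KO2 with vehicle.

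Of the 10 genes, the count over the 3 lines was 3, and 1 without the filter or after quantile normalization. With the replicate block it was 6, 5 with the unnumbered libraries on the R1 level, 7 with voom or quantile normalization, and 6 without mitochondrially encoded genes. In the control line and KO2 it went from 0 to 5 in each of these 5 fits, and in KO1 from 0 to 4, or 5 with quantile normalization. In vehicle it went from 0 to 1 in KO1 by suffix, with voom or with quantile normalization, and from 0 to 2 in KO2 by these and without mitochondrially encoded genes.

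Leaving out 1 library gave 4 to 30, 5 to 26, 5 to 34, 693 to 1162, 4 to 20 and 2 to 18 genes and 1 to 3 of the 10 over the 3 lines. Leaving out 1 pair with the block gave 1775 to 3572, 704 to 3439, 636 to 3405, 5311 to 6133, 54 to 671 and 63 to 617 genes, and of the 10 it gave 3 to 4, 3 to 4, 2 to 5, 5 to 6, 0 to 0 and 0 to 1. No value for knockout against control could be had with the block without the R2 control pair.

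Signs turned only where a library or pair was left out. SDF2L1 over the 3 lines was between -0.22 and 0.25 without 1 library and between -0.10 and 0.12 without 1 pair. PDIA6 was between -0.21 and 0.17 and between -0.06 and 0.02, and in KO2 with vehicle between -1.14 and 1.9e-05. The causes were not tested. Each group had 2 libraries, which limits the precision of every value.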

Other observations

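The ERSE or ERSE-II was found in the windows of 35 further genes, of which 19 passed the filter on low values. With bortezomib 7 of the 19 rose and 6 fell in limma with the block, 1 was called without it, and the median log2 change was -0.03. Over all tested genes 27.0% rose and 27.9% fell with the block and 11.6% were called without it, and nothing particular to the 19 is read from their counts. The gene called in both was SYNPO, which fell by 1.06 (adjusted p = 0.0213 without the block). SERP1, an ER membrane protein of the translocon, changed by 0.69 and was higher in 6 of 6 pairs (adjusted p = 0.000316 with the block), while FICD, the enzyme that AMPylates BiP, changed by -0.43 and was lower in 6 of 6 pairs (0.000959). SERP1 and FICD were chosen after their values were seen.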
